A study of Drosophila melanogaster with 4 samples.

Results

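The noncoding RNAs described here are the RefSeq transcripts with an NR_ identifier, the prefix RefSeq gives to noncoding RNAs, that were well represented in poly(A) RNA from adult Drosophila melanogaster ovaries. They were chosen from the levels themselves: a row was taken where its expected count, divided by the column total and multiplied by 1000000 (CPM), reached 5 CPM in at least 2 of the 4 columns. The rule took 87 of 3244 NR_ rows, in a table of 34705 rows in all. Of these 87 rows, 69 belonged to 56 genes of NCBI's RefSeq gene table and 18 had no gene there, so that after summing the rows of each gene there were 74 members. The 2 Control libraries came from ovaries of the cross labelled mat>Luc, and the 2 Nup358GLKD libraries from ovaries with a germline knockdown of Nup358, a nuclear pore protein. All 4 were adult ovary samples of 10 to 15 pairs. Beyond the notation mat>Luc for Control, the labels do not spell out a driver or a construct, and they give no age of the flies.

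Most noncoding RNAs that a poly(A) library can hold are long: spliced lncRNAs, antisense RNAs and the host genes of small nucleolar RNAs. Small nucleolar RNAs (snoRNAs) guide the chemical modification of ribosomal RNA in the nucleolus, and in flies many lie in introns of genes whose spliced exons encode no protein, named U snoRNA host genes (Uhg). Hsromega is a heat-inducible lncRNA that gathers hnRNP proteins into nuclear bodies called omega speckles, and roX RNAs belong to the dosage compensation complex of males. Transfer, ribosomal, small nuclear and microRNAs mostly lack a poly(A) tail, and their levels in such a library do not measure their abundance in the cell.

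Among the 69 rows with a gene, 46 of 1907 lncRNA rows, 22 of 429 antisense RNA rows and 1 of 264 snoRNA rows met the rule. None of the 239 microRNA, 45 small nuclear RNA and 4 signal recognition particle RNA rows did, nor did the rows of RNase P and RNase MRP RNA. The 74 members fell into 10 snoRNA and snoRNA host genes, 24 other lncRNA genes, 22 antisense genes and the 18 rows without a gene. At the edge of the rule, the second highest column was 5.10 CPM for asRNA:CR44390, 5.25 for lncRNA:CR43250 and 5.29 for lncRNA:CR43900, just inside. Just outside it was 4.90 CPM for a row of lncRNA:CR45018, 4.89 for asRNA:CR45171 and 4.83 for asRNA:CR44894.

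Depth was alike, between 58876800 and 60792292 expected counts per library. Nup358 itself had 662 and 624 CPM in Control replicates 1 and 2 and 283 and 151 CPM in Nup358GLKD replicates 1 and 2, the order used for every series of 4 values here. This is a fitted log2 change of -1.57 ± 0.34 (SE), with an adjusted p of 0.0525, which does not pass the threshold of 0.05. Its level was below both Control libraries in both knockdown libraries. The knockdown libraries differed more from each other (SD of log2 differences 0.668 over all features) than the Control libraries did (0.198). Markers of the muscle sheath around the ovary stood apart in Nup358GLKD replicate 1: the 8 of them summed to 312 and 246 CPM in Control, 1318 CPM in Nup358GLKD replicate 1 and 286 CPM in replicate 2. The libraries are labelled as biological repeats without further detail, and a p-value therefore covers just the spread among these samples, which may be technical. In ovary RNA, fewer cells of a type and less RNA per cell cannot be told apart.

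The noncoding members took a larger share of the RNA in the knockdown ovaries. They made up 0.371% and 0.369% of all counts in the Control libraries (mean 0.370% ± 0.00107, SD, n = 2) and 0.647% and 0.703% in the Nup358GLKD libraries (0.675% ± 0.0399, SD, n = 2), a ratio of 1.82. Both knockdown values lay above both Control values, but an exact permutation test of 2 against 2 cannot give a p below 0.333. The members held between 89.6% and 92.7% of all counts on NR_ rows. A pair of members, lncRNA:CR42862 and the row NR_004370_3, held a large part of this. Without both, the summed level of the other 72 was 1748, 1765, 3505 and 3178 CPM, a ratio of 1.90. These sums are on TMM-scaled library sizes and include every row of a gene, unlike the shares above. On that scale all 74 members gave a ratio of 1.94.

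Of the 74 members, 20 were higher and 5 lower in Nup358GLKD by edgeR's quasi-likelihood test with Benjamini-Hochberg adjustment over all 10210 features of the table, from which every adjusted p here comes, and 49 did not pass. Over all features, 9.54% were called higher and 9.02% lower. Because the rule uses the level of single rows, a row that reached 5 CPM only through 1 group had to differ between the groups. A gene summed over its rows can still reach 5 CPM in the other group. lncRNA:CR43837, with 9.27 CPM in Nup358GLKD replicate 2, met the rule through Control. By their rows, 11 members met the rule in the knockdown columns alone, 7 in the Control columns alone and 11 in other combinations. Their levels are given as a description, with no test. Of the 45 members that met it in all 4 columns, 12 (26.7%) were higher and 1 (2.22%) was lower, with a median fitted log2 change of 0.54 against 0.01 over all features. Among these 45, the members with a gene gave 5 higher of 31 (16.1%) and the rows without a gene 7 of 14 (50%).

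Of the 45 members that met the rule in every column, both knockdown libraries were above both Control libraries in 28 and below them in 5, where 37.9% and 39.8% of all features did so. Over all 74 members, in part fixed by the rule, these counts were 41 and 15. These calls rest on the summing of rows over the whole table, also in members of a single row, and on both Control libraries. Unsummed, 20393 rows were tested, and NR_003989, a single row, had a log2 change of 1.27 (adjusted p = 0.0613). In the main fit its log2 change was 1.33 (adjusted p = 0.0337). With transcript rows tested one by one, no member passed in either direction (36 higher and 9 lower at an unadjusted p under 0.05). Without Control replicate 1 or replicate 2 none passed either. Each of the 25 called members kept its direction there. In all 25 both knockdown libraries lay on 1 side of both Control libraries, so leaving out 1 library could hardly turn the direction. Without Nup358GLKD replicate 1, 38 members were higher and 15 lower, and without replicate 2, 40 and 19.

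**Figure D1:**
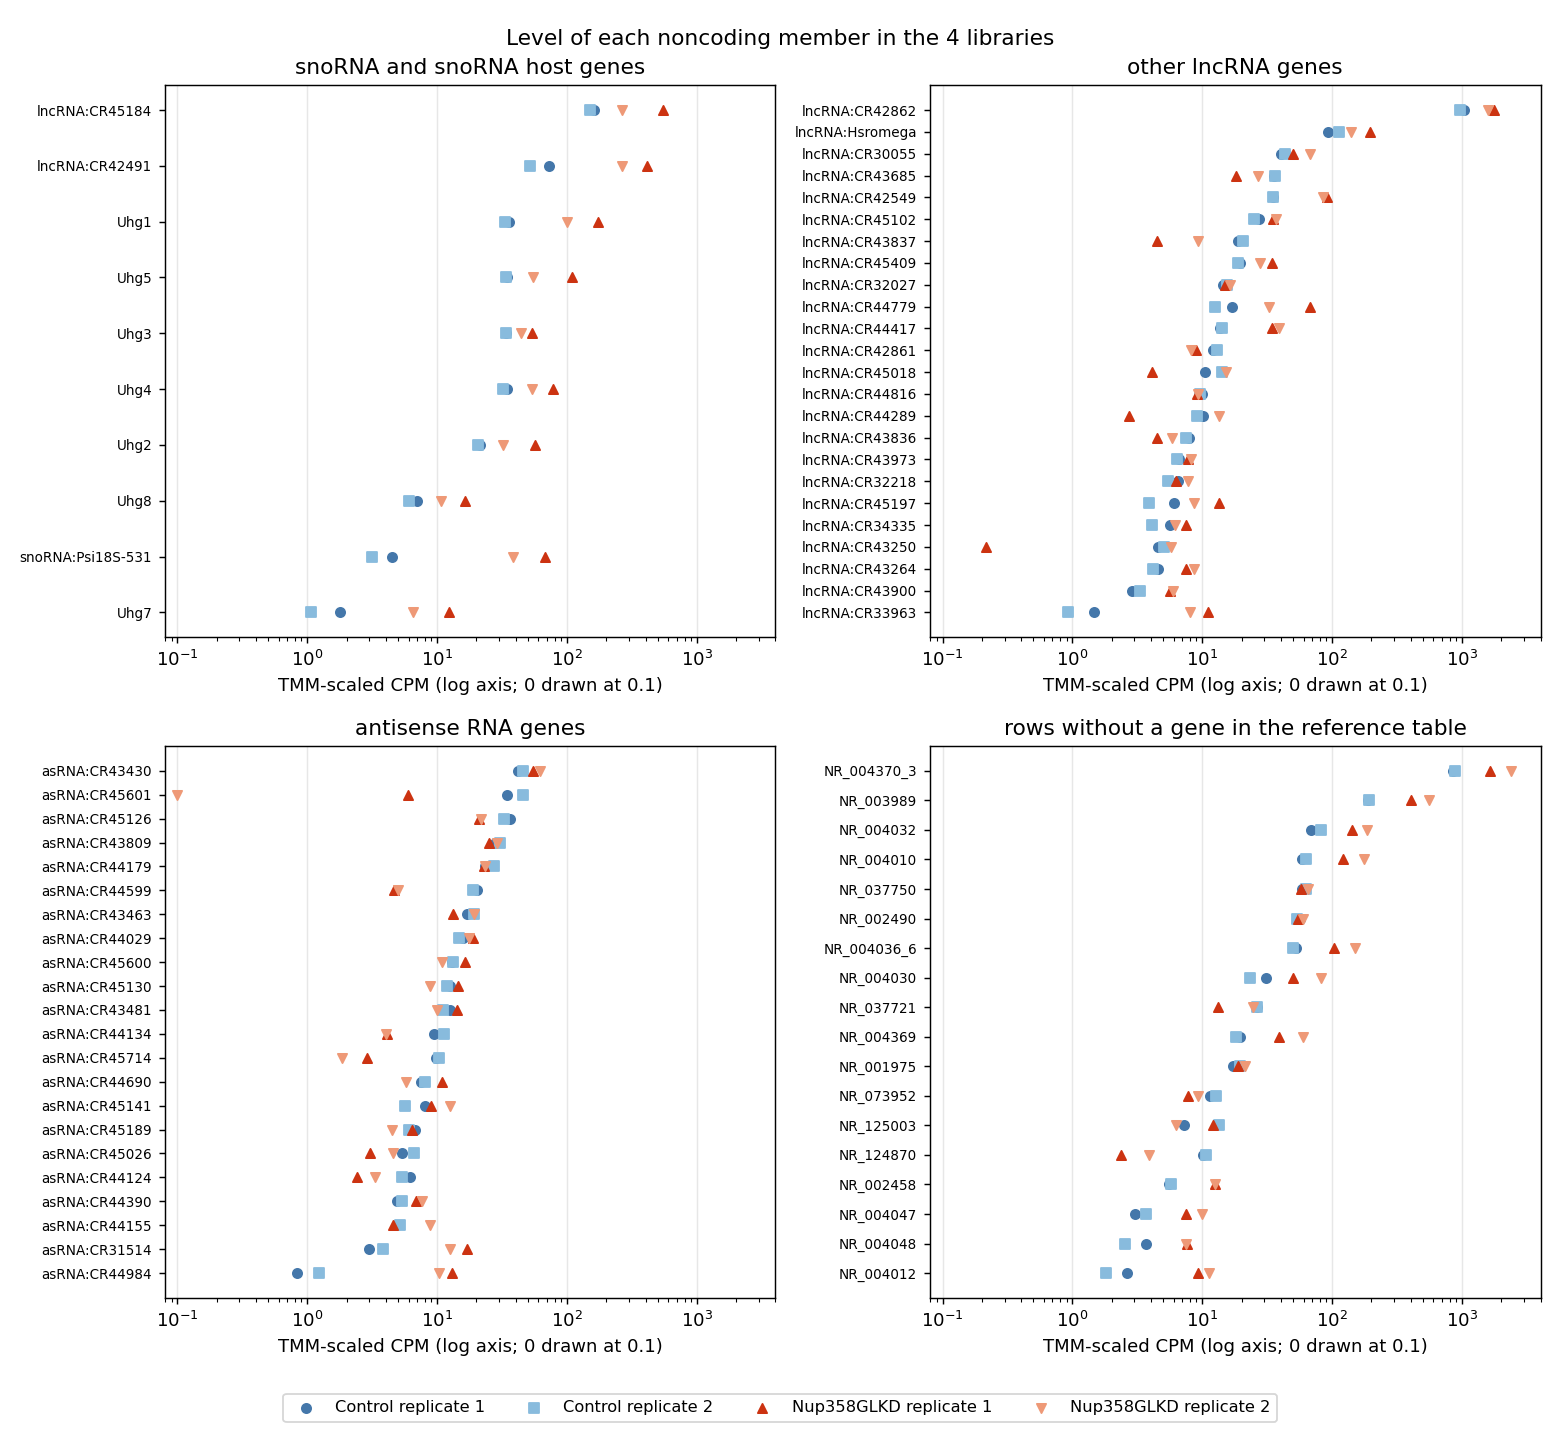
TMM-scaled CPM (log axis) of each of the 74 noncoding members in the 4 libraries, in 4 panels by kind; circles and squares are Control replicates 1 and 2, triangles up and down Nup358GLKD replicates 1 and 2, and a value of 0 is drawn at 0.1. All 10 members of the snoRNA panel lie higher in both knockdown libraries, and the antisense panel holds members on either side.

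Of the 10 snoRNA and host members, 8 met the rule in every column, and all 8 were above both Control libraries in each knockdown library, as 37.9% of all features were. Their summed level was 400.3 and 361 CPM in Control and 1442 and 823 CPM in Nup358GLKD, a ratio of 2.98, and the median fitted log2 change was 1.18. Of these 8, 2 rose by the test (25%, where 9.54% of all features did), Uhg1 and lncRNA:CR42491, and 6 did not pass. Uhg7 and snoRNA:Psi18S-531 met the rule in the knockdown columns alone, which fixed their direction, and they are described by their levels. Every one of the 10 was higher in Nup358GLKD replicate 1 than in replicate 2.

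Uhg1, whose gene contains 16 annotated snoRNAs, had 35.8 and 33.0 CPM in Control and 173 and 98.8 CPM in Nup358GLKD. It rose 3.95-fold, a fitted log2 change of 1.98 ± 0.32 (SE), with an adjusted p of 0.0371. The exons of Uhg1 overlap on the other strand those of CG6424. That gene had 103, 99.0, 181 and 112 CPM and did not pass (adjusted p = 0.191). lncRNA:CR42491, whose gene contains snoRNA:Psi18S-531, had 72.9 and 51.7 CPM against 411 and 265 CPM. It rose 5.42-fold (log2 2.44 ± 0.32, SE, adjusted p = 0.0311), the largest fitted change among the members called higher that met the rule in every column. Its exons overlap on the same strand those of RpL22, a ribosomal protein gene with 936, 824, 1663 and 895 CPM, whose groups overlap and which did not pass (adjusted p = 0.272).

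The other 5 Uhg genes that met the rule in every column had smaller folds, and their tests did not reach the threshold. Uhg5 had 34.2, 33.7, 110 and 54.0 CPM in Control replicates 1 and 2 and Nup358GLKD replicates 1 and 2 (2.41-fold, adjusted p = 0.0823). Uhg2 had 21.4, 20.4, 56.4 and 32.1 CPM (2.12-fold, adjusted p = 0.0776), and Uhg8 had 6.91, 6.10, 16.4 and 10.7 CPM (2.09-fold, adjusted p = 0.0686). In each of these genes the 2 Control values lay close together and the knockdown values were far apart. Uhg4 had 34.6, 31.9, 78.0 and 53.7 CPM (1.98-fold, adjusted p = 0.0558). Uhg3 had 33.8, 33.5, 54.0 and 43.8 CPM (1.45-fold, adjusted p = 0.0768), the smallest fold of these. Uhg8 shares exon sequence on the other strand with atk, which rose (0.112, 0.163, 6.83 and 3.04 CPM, adjusted p = 0.0313). Uhg4 does so with Ctu1, which did not pass (14.9, 14.4, 16.9 and 12.5 CPM, adjusted p = 0.986). With the replicate number as a block, Uhg2, Uhg4 and Uhg5 passed (adjusted p = 0.0482, 0.0373 and 0.0494).

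lncRNA:CR45184 had the highest CPM of the hosts, with 161 and 151 CPM in Control and 544 and 266 CPM in Nup358GLKD (2.60-fold, adjusted p = 0.0735, and 0.0400 with the replicate block). It holds 5 annotated snoRNAs, and its exons overlap on the same strand those of Sf3b3, a subunit of the splicing factor SF3b, which had 337, 317, 1106 and 504 CPM (adjusted p = 0.0924). The order of the libraries was the same in both genes, and reads from their shared exons were divided between them by the estimate. Uhg7 reached the rule in the knockdown columns alone, with 1.79, 1.07, 12.2 and 6.55 CPM, 6.55-fold higher. It overlaps an exon of RpL23A, a ribosomal protein gene with 1753, 1770, 3389 and 2331 CPM.

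Nup358GLKD replicate 1 was the library with high muscle sheath markers, and it was also the higher one for all 10 of these members. No muscle marker passed the test (0 of 8, where 9.54% of all features were called higher and 9.02% lower). None of the 8 markers was at 0, and their part in the host gene result was not tested. In Nup358GLKD replicate 2, where the markers summed to 286 CPM against 246 to 312 CPM in Control, each of the 8 members that met the rule in every column was above both Control libraries. Fitted without replicate 1, these 8 passed with a median log2 change of 0.70, and without replicate 2 they passed with a median of 1.53, but the lone knockdown library is then assumed to vary like the Control libraries.

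**Figure D2:**
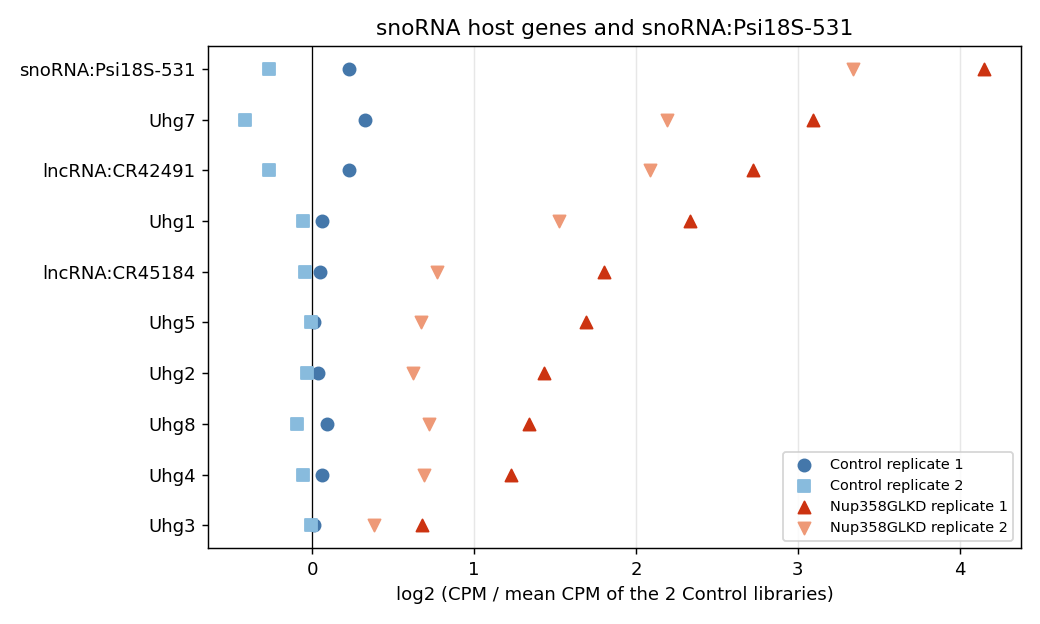
Level of the 9 snoRNA host genes and snoRNA:Psi18S-531 in each library, as the log2 ratio of its CPM to the mean of the 2 Control libraries (vertical line at 0), ordered by fitted change. Nup358GLKD replicate 1 (triangles up) lies to the right of replicate 2 (triangles down) in every row, and both lie to the right of both Control libraries.

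snoRNAs themselves were scarce in these poly(A) libraries, with 1 exception. Such levels do not measure the abundance of snoRNAs in the cell. snoRNA:Psi18S-531, named for the pseudouridine it guides in 18S ribosomal RNA, had 4.44 and 3.15 CPM in Control and 67.3 and 38.4 CPM in Nup358GLKD, 13.9-fold higher. It reached the rule in the knockdown columns alone and lies inside lncRNA:CR42491, which itself overlaps RpL22, and how the estimate divided reads among these RNAs was not tested. The other 263 snoRNA rows together had 25.4, 19.6, 77.9 and 51.7 CPM. The 9 host genes contain 54 annotated snoRNAs, of which 53 had rows. The 16 in Uhg1 summed to no more than 2.03 CPM in any library, beside 33.0 to 173 CPM for Uhg1 itself.

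Several proteins that work with snoRNAs rose as well. The list of box C/D and H/ACA snoRNP core proteins, of which 7 of 12 names were found, had 4 higher, 0 lower and 3 not passing, with a median log2 change of 1.29. Over all features, 9.54% were called higher and 9.02% lower. Nop60B, the pseudouridine synthase of H/ACA particles, had 578, 567, 1723 and 1168 CPM and rose 2.52-fold (adjusted p = 0.0399). Nop56 and nop5, the scaffold proteins of box C/D particles, rose 2.46-fold (248, 245, 706 and 508 CPM, adjusted p = 0.0351) and 2.45-fold (327, 311, 964 and 598 CPM, adjusted p = 0.0491). NHP2, an H/ACA core protein, rose 2.41-fold (69.1, 67.0, 196 and 133 CPM, adjusted p = 0.0399). Fib, the methyltransferase fibrillarin, is named after its values were seen and had 130, 99.5, 508 and 117 CPM and did not pass (adjusted p = 0.204). In each of these proteins Nup358GLKD replicate 1 was above replicate 2, as it was in the host genes.

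Protein partners of the other classic noncoding RNAs are given beside the 9.54% of all features called higher and the 9.02% called lower. Of 12 Sm and snRNP proteins 1 rose, SmD3 (102, 99.9, 152 and 142 CPM, adjusted p = 0.0425), and 11 did not pass. Of 9 signal recognition particle proteins 1 fell, the receptor subunit SrpRalpha (147, 137, 98.3 and 93.0 CPM, adjusted p = 0.0425). Of 5 proteins of the 7SK particle and its kinase P-TEFb 1 fell, Hexim, the inhibitor that 7SK RNA brings to P-TEFb, which was 2.73-fold lower (73.8, 77.7, 21.7 and 33.6 CPM, adjusted p = 0.0399). No tested protein of RNase P and MRP (0 of 7, one of which, Pop2, names a deadenylase in flies), of the dosage compensation complex (0 of 6) or of the nuclear exosome and nonsense-mediated decay (0 of 16) passed.

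In Control, lncRNA:CR42862 had the highest level of the members with a gene, also after division by exon length. It had 1028 and 961 CPM in Control and 1755 and 1567 CPM in Nup358GLKD and rose 1.67-fold, a fitted log2 change of 0.74 ± 0.14 (SE), with an adjusted p of 0.0411, and 0.0565 with the replicate block. Per kilobase of annotated exon its mean level was 181 CPM in Control, followed by lncRNA:CR42491 at 83.4, Uhg4 at 67.8 and lncRNA:CR45184 at 58.7. In Nup358GLKD it was 303 CPM per kilobase, below lncRNA:CR42491 at 452 and snoRNA:Psi18S-531 at 348. Hsromega had 4.73 CPM per kilobase in Control and 7.68 in Nup358GLKD, with annotated exons of 21710 bases in all. The exons of lncRNA:CR42862 overlap on the same strand those of CG33229, which had 86.5, 97.7, 144 and 197 CPM (adjusted p = 0.0540).

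Hsromega did not pass the test, while proteins of its speckles did. The gene had 92.0 and 113 CPM in Control and 194 and 139 CPM in Nup358GLKD (1.62-fold, adjusted p = 0.0912), with both knockdown values above both Control values. Among 8 hnRNPs and related proteins of omega speckles, 5 rose, 0 fell and 3 did not pass, with a median log2 change of 0.77. Of all features, 9.54% rose and 9.02% fell by the same test. Hrb98DE, the fly hnRNP A1, had 367, 356, 1544 and 1106 CPM (3.66-fold, adjusted p = 0.0281), and glo, an hnRNP F/H protein, 150, 141, 355 and 309 CPM (2.28-fold, adjusted p = 0.0280). sqd, an hnRNP that binds gurken RNA in the oocyte, had 1004, 968, 2169 and 1706 CPM (1.97-fold, adjusted p = 0.0404). nonA and sm also rose, by 1.57-fold and 1.79-fold (adjusted p = 0.0362 and 0.0381).

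Of the 24 other lncRNA genes, 13 met the rule in every column. Of these 13, 3 were higher (23.1%, against 9.54% of all features) and 0 lower (against 9.02%), with a median log2 change of 0.50, and the 3 are lncRNA:CR42862 and the 2 that follow. Over all 24, 4 were called higher and 0 lower. lncRNA:CR42549 had 35.1, 34.9, 91.7 and 84.7 CPM and rose 2.52-fold (log2 1.33 ± 0.12, SE, adjusted p = 0.0280). lncRNA:CR44417 had 13.6, 14.2, 34.3 and 38.6 CPM and rose 2.62-fold (log2 1.39 ± 0.14, SE, adjusted p = 0.0280). In these genes the replicates of each group lay close together, unlike in the snoRNA hosts. Exons of lncRNA:CR42549 overlap those of mura on the same strand, whose groups overlap (41.1, 38.3, 54.7 and 40.8 CPM), and lncRNA:CR44417 lies opposite Mapmodulin without sharing an exon. No role is given for either in the files.

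Some lncRNAs entered the set through 1 group or differed strongly between the knockdown libraries. lncRNA:CR33963 had 1.45 and 0.927 CPM in Control and 11.04 and 8.09 CPM in Nup358GLKD, 8.04-fold higher, and overlaps on the same strand an exon of Tis11, a protein that promotes decay of AU-rich mRNAs (175, 177, 306 and 232 CPM, adjusted p = 0.0734). lncRNA:CR43837 entered through Control, with 19.0 and 20.5 CPM against 4.48 and 9.27 CPM. lncRNA:CR44779 and 3 lncRNAs low in a single knockdown library are named here after their values were seen. lncRNA:CR44779 had 17.0, 12.5, 67.1 and 32.8 CPM (3.39-fold, adjusted p = 0.0599). lncRNA:CR43250 had 4.52, 5.07, 0.216 and 5.75 CPM, lncRNA:CR44289 had 10.1, 9.10, 2.73 and 13.5 CPM, and lncRNA:CR45018 had 10.4, 14.2, 4.10 and 15.2 CPM. In these 3 Nup358GLKD replicate 1 was the low library and replicate 2 was above Control.

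Of the 22 antisense genes, 10 met the rule in all 4 columns, and their summed level was nearly equal in the groups, with 202, 209, 206 and 209.6 CPM, a ratio of 1.01. Of these 10, 0 were higher and 1 was lower (9.54% and 9.02% of all features). Over all 22, 2 were called higher and 4 lower, but the 2 higher and 3 of the 4 lower met the rule through 1 group, which fixed their direction. The 1 that passed among the 10 was asRNA:CR45126: this RNA, opposite Taf3, a subunit of the general transcription factor TFIID, fell. It had 35.9, 32.7, 20.8 and 21.5 CPM (1.62-fold lower, log2 -0.70 ± 0.13, SE, adjusted p = 0.0417, and 0.0577 with the replicate block). Taf3 had 169, 165, 108 and 130 CPM and did not pass (adjusted p = 0.0720).

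The other antisense members with large differences met the rule through 1 group. asRNA:CR44599 had 20.2 and 18.8 CPM in Control and 4.602 and 4.97 CPM in Nup358GLKD, 4.07-fold lower. It lies opposite loqs, which encodes a double-stranded RNA binding partner of Dicer, and loqs fell as well, with 39.7, 42.4, 13.6 and 16.7 CPM (2.71-fold lower, adjusted p = 0.0289). asRNA:CR45714, opposite the serine protease gene Hayan, had 9.74, 10.3, 2.89 and 1.86 CPM, and asRNA:CR44134, opposite Lipt2, had 9.40, 11.3, 4.12 and 4.04 CPM. In both the rule itself set the groups apart, so they are not compared with the tests of their partners. Hayan (2.14, 1.33, 0.611 and 0.415 CPM, adjusted p = 0.0607) and Lipt2 (5.62, 5.12, 4.08 and 5.85 CPM, adjusted p = 0.760) did not pass.

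A pair of antisense members entered through the knockdown. asRNA:CR44984 had 0.830 and 1.24 CPM in Control and 13.0 and 10.2 CPM in Nup358GLKD, 11.3-fold higher. It lies opposite ed, the cell adhesion gene echinoid, which had 173, 166, 156 and 157 CPM and did not pass (adjusted p = 0.405). asRNA:CR31514 had 3.002, 3.84, 16.9 and 12.6 CPM, 4.32-fold higher. It lies opposite both CG12947, which rose (4.09, 4.63, 15.7 and 11.7 CPM, adjusted p = 0.0332), and the ribosomal protein gene RpS29 (1089, 1067, 1804 and 1457 CPM, adjusted p = 0.0699). The groups of CG12947 were apart, while those of asRNA:CR31514 were set apart by the rule. Replicate 1 was the higher knockdown library in each.

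No source used here says whether reads were counted by strand, so an antisense RNA and the coding gene it overlaps cannot be told apart with certainty. The same holds for other members with a coding exon on the other strand, such as Uhg1, Uhg4 and Uhg8. Each of the 22 antisense members shares an exon region with a tested coding gene on the other strand, in 26 pairs. Fitted log2 changes had the same sign in 18 pairs and the opposite sign in 8, and across the 26 pairs, which share libraries and in part members, Pearson's r was 0.305 and Spearman's rho 0.386. The signs of members with a single row that met the rule through 1 group were fixed by it, so these numbers only describe the pairs. asRNA:CR45601, singled out after its values were seen, lies opposite the yolk protein gene Yp1. It had 34.4, 46.0, 5.93 and 0 CPM (adjusted p = 0.173) where Yp1 had 3427, 2991, 5846 and 4378 CPM (adjusted p = 0.0906).

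**Figure D3:**
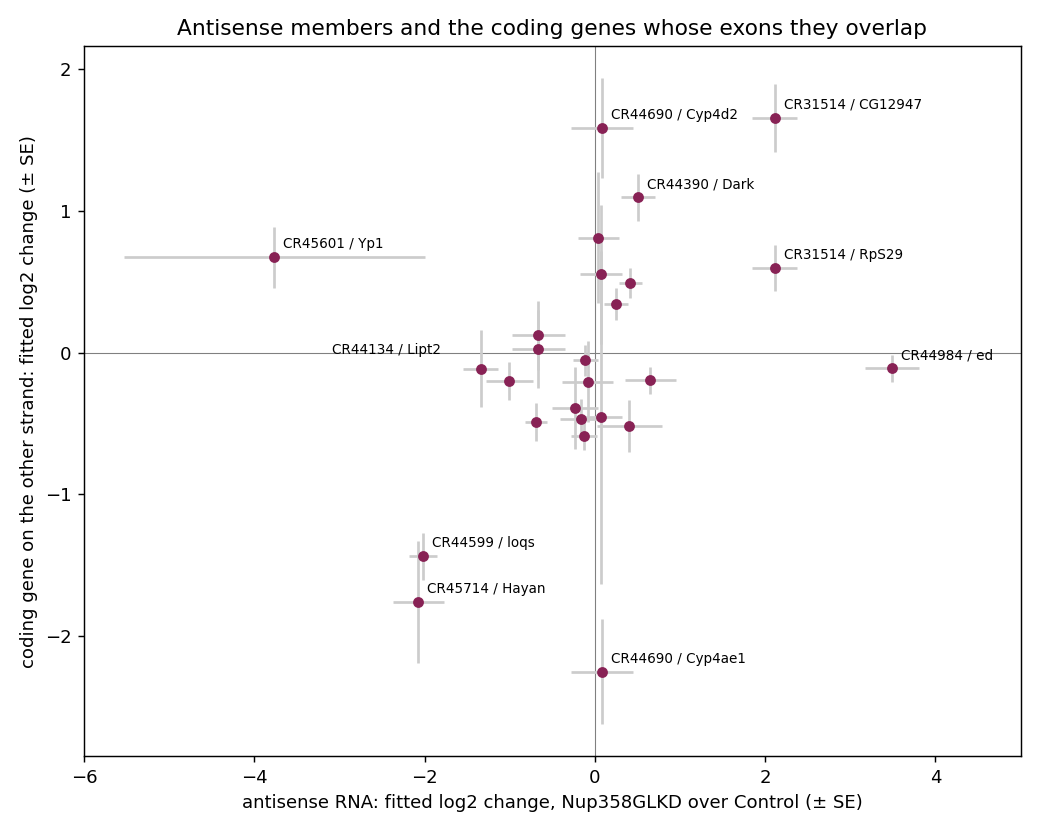
Fitted log2 change (Nup358GLKD over Control, ± SE) of each antisense member on the horizontal axis and of the coding gene whose exons it overlaps on the other strand on the vertical axis, 26 pairs. The pairs of asRNA:CR44599 with loqs and of asRNA:CR31514 with CG12947 lie far out along the same sign, and asRNA:CR44984 lies far to the right at a fitted change of -0.11 for ed.

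The 18 rows without a gene in the reference table held a large part of the difference between the groups, and they carry no name or role here. Of these, 14 met the rule in every column. The 14 summed to 1450.0, 1496, 2656 and 3791 CPM, a ratio of 2.19, and 7 were higher and 0 lower, where 9.54% and 9.02% of all features were. Over all 18, 10 were called higher and 1 lower. The row with the highest CPM, NR_004370_3, had 850 and 875 CPM in Control and 1623 and 2388 CPM in Nup358GLKD. It was 2.33-fold higher (log2 1.22 ± 0.23, SE, adjusted p = 0.0442), but its adjusted p was 0.0507 with total-count scaling and 0.0527 with no filter on low counts. NR_003989 had 187, 192, 402 and 553 CPM and was 2.52-fold higher (log2 1.33 ± 0.19, SE, adjusted p = 0.0337). NR_124870, which met the rule through Control, was the one called lower, with 10.1, 10.6, 2.37 and 3.85 CPM.

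Many of the higher rows have neighbouring identifiers. The 10 rows that begin with NR_0039 or NR_004 are a subset chosen after the values were seen, 3 of them met the rule in the knockdown columns alone, and their levels are only a description. They summed to 1276, 1311, 2504 and 3621 CPM. In 9 of the 10 Nup358GLKD replicate 2 was above replicate 1, the reverse of the snoRNA hosts.

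Which knockdown library was the higher one differed by kind of RNA. The median absolute log2 ratio between them was 0.459 over the 74 members and 0.334 over all features, against 0.125 and 0.0749 between the Control libraries. A small offset was added to the CPM of all features before their ratios were taken, but not to that of the members. It shrinks ratios at low levels, so members and all features are not measured quite alike. For the snoRNA and host members it was 0.811, always with replicate 1 higher. Replicate 2 was higher in 15 of the 18 rows without a gene, and the antisense members were evenly divided, 11 each way. In 8 of 74 members (10.8%) the knockdown libraries were more than 2-fold apart, and in 10.7% of all features with that offset. No member was more than 2-fold apart between the Control libraries.

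**Figure D4:**
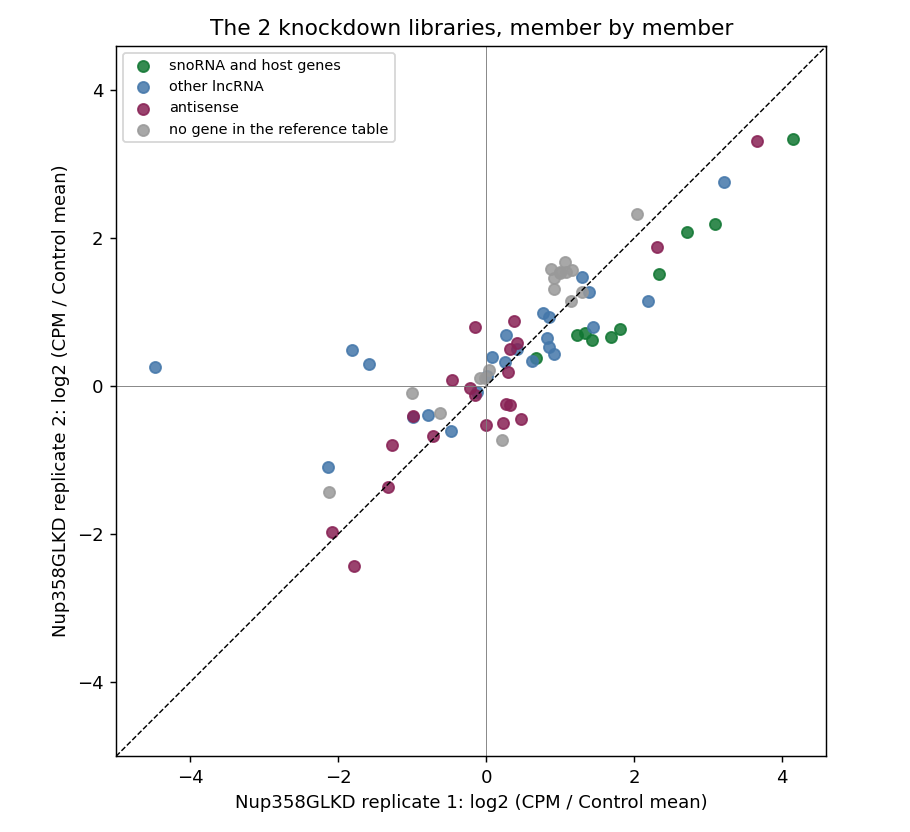
Log2 ratio of each member's CPM to its Control mean in Nup358GLKD replicate 1 (horizontal) and replicate 2 (vertical), coloured by kind; the dashed line marks equal values, and asRNA:CR45601 is left out because it is at 0 in replicate 2. Green points (snoRNA and host genes) all lie below the line, most grey points (no gene in the reference table) above it.

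Among 20 member genes with counts on more than 1 transcript row, 8 had 2 or more rows that met the rule, and the shares of their rows, as RSEM divided them, are a description. In lncRNA:CR45184 the row NR_124750 went from 6.89% and 4.38% of the gene's counts in Control to 13.2% and 25.0% in Nup358GLKD. In Hsromega the row NR_074035 went from 5.92% and 4.796% to 16.2% and 8.72%, while NR_002067 fell short of its Control share in both knockdown libraries (45.2% and 50.1% against 37.9% and 40.1%). In both genes the minor row took more of the total in the knockdown, in unequal amounts in the 2 libraries. In Uhg1 the row NR_073887 had 8.88% and 10.2% against 13.1% in each knockdown library. asRNA:CR45026 and lncRNA:CR30055 were picked for their shares after these were seen. In lncRNA:CR30055 the row NR_124526 was the largest in Control (41.1% and 40.6%), and NR_037739 in Nup358GLKD (42.2% and 45.1%). asRNA:CR45026 had nearly all its counts on NR_124802 in Control (100% and 94.4%), but 48.8% and 0% in Nup358GLKD, where the gene had only 3.02 and 4.55 CPM.

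**Figure D5:**
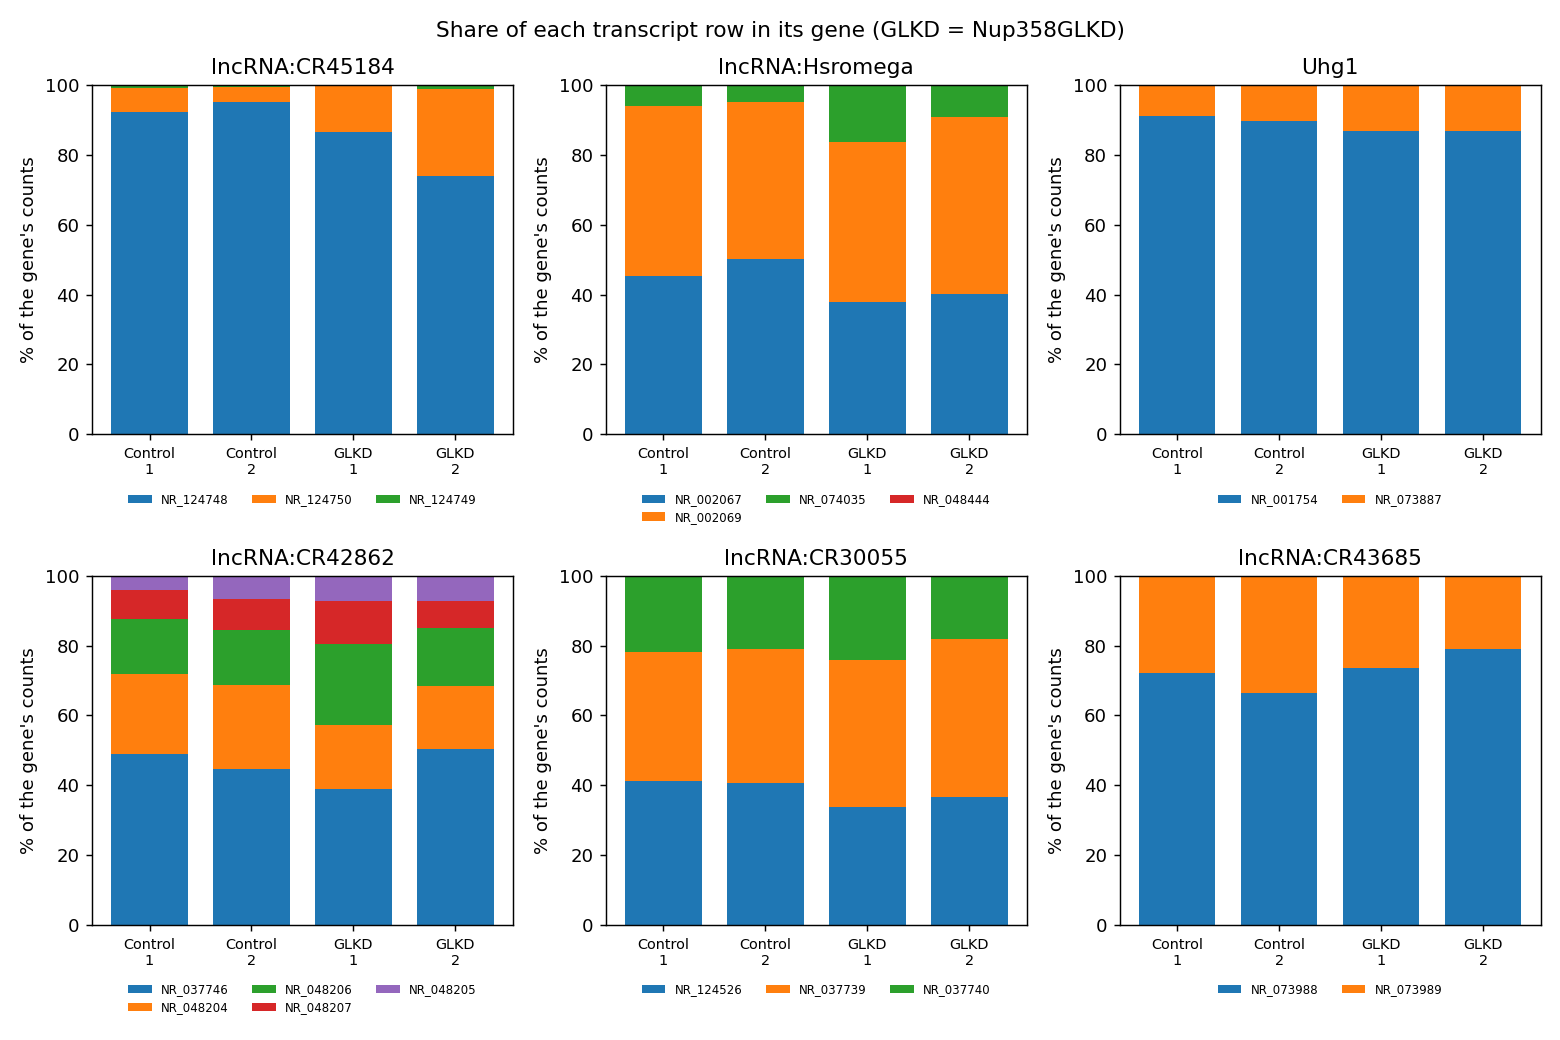
Share of each transcript row in its gene's counts (%), stacked to 100, for 6 member genes with several rows in the 4 libraries. NR_124750 of lncRNA:CR45184 and NR_074035 of Hsromega have larger shares in both knockdown libraries, and NR_037739 takes the first place from NR_124526 in lncRNA:CR30055.

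Markers of the ovary's cell types are given for comparison, beside the 9.54% of all features called higher and the 9.02% called lower. Of 9 germline markers 2 rose, orb, a translational regulator of the oocyte (2.69-fold, adjusted p = 0.0293), and aub, a Piwi-family protein (1.70-fold, adjusted p = 0.0379), and the sum was 6431, 6551, 7405 and 8487 CPM. The 7 that did not pass, named after their values were seen, were divided. Both knockdown libraries were above Control for grk, ovo and vas, and below it for bam (63.8, 69.9, 12.8 and 44.8 CPM, adjusted p = 0.206). For bcd, CycB and osk the groups overlapped. Of 12 follicle cell markers 1 rose, the adhesion protein gene Fas3 (3.25-fold, adjusted p = 0.0275), and 1 fell, the yolk protein gene Yp3 (log2 -1.53, adjusted p = 0.0402), and the sum was 22454, 22864, 17611 and 23395 CPM. Of 6 tested hemocyte and fat body markers 2 rose, the fat body genes Lsp2 (34.0-fold, adjusted p = 0.0280) and Fbp1 (7.31-fold, adjusted p = 0.0478). All 8 of that list summed to 83.3, 92.1, 186 and 141 CPM, and the hemocyte marker He was at 0 in both Control libraries. Most of this sum was srp (76.2, 85.8, 108 and 114 CPM, adjusted p = 0.0662). Hml and Pxn of the same list, named like srp after their values were seen, were high in Nup358GLKD replicate 1. Hml had 0.575, 0.553, 6.81 and 0.847 CPM (adjusted p = 0.139). Pxn had 6.003, 4.41, 53.4 and 5.18 CPM (adjusted p = 0.174). In Fbp1, Lsp1beta, Lsp2, NimC1 and srp replicate 2 was the higher knockdown library. The 7 testis and male markers found were not tested and summed to 0.27 CPM at most, with Mst84Da and SP at 0 in every library, and roX2 was at 0 as well. The part of these cell types in the results was not tested.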

How the data were processed

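The authors deposited 1 table of expected counts per transcript (estimates from RSEM, often not whole). The submitters' processing notes name Bowtie2, RSEM and the build dm3, and the labels' protocols name poly(A) enrichment and a TruSeq kit. No source used here gives versions, annotation release or strand setting. Expected counts of the deposited rows were summed per gene with NCBI's RefSeq table (33997 of 34437 RefSeq rows and 3109 of 3244 NR_ rows matched), coding and noncoding rows apart, and rounded. Unmatched rows were kept as they were. An Ensembl annotation of another build served only for overlaps, strand and exon length.

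edgeR 4.0.16 in R 4.3.3 fitted all 10210 features that passed filterByExpr (minimum count 10, minimum total 15) in the 4 libraries by group, with TMM factors, glmQLFit (robust=TRUE, legacy=FALSE) and glmQLFTest, and called features at 0.05 after Benjamini-Hochberg adjustment. All 74 members were tested. Levels are CPM on TMM-scaled library sizes, except the 5 CPM rule, which uses column totals. Depth was at least 58876800 counts per library, and counting error was small beside the difference between replicates: chi-square per degree of freedom was 15.9 between the Control and 361 between the knockdown replicates, so none was counted as a duplicate. The code was tested on simulated data.

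The members and gene lists were chosen with earlier results of these data known. Members named are the classes with known roles, the 10 with the highest mean CPM, up to 10 with the largest called changes in each direction, those at the edge of the rule and up to 5 that met it in 1 group alone. List genes named are up to 3 with the smallest p, and any others that passed, added after seeing the values. Any other gene is said to be chosen after its values were seen or overlaps a named member. Of the rows without a gene, only examples are named. Alternatives were other scalings and filters, DESeq2 1.42.0, limma 3.58.1 (voom), a replicate block, unsummed rows, other limits for the rule and leaving out each library.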

Additional observations from a re-analysis of the deposited data

How the results depend on the processing

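The 20 members called higher and 5 called lower were counted again under each alternative. With RLE factors, limma-voom, robust=FALSE or coding and noncoding transcripts summed, the counts were 20 and 5, and over those, the other scalings (total counts 17 and 5, upper quartile 22 and 4), no filter (16 and 5), a mean of at least 5 CPM (23 and 4) and a rule of 10 CPM (15 and 4) they stayed within 1.5 times. The 25 called members kept their direction in every alternative fitted on summed rows. Their groups did not overlap, so a change of direction was hardly possible. Upper-quartile factors turned the split over all features from 974 higher and 921 lower to 1139 and 708. DESeq2 called 32 members higher and 8 lower, and 1830 and 2031 of all features. A mean of at least 5 CPM left 609 of all features lower. With rows not summed, 0 members were higher and 0 lower, and over all rows 0 higher and 1 lower, where 3748 and 3276 had an unadjusted p under 0.05 and the lowest adjusted p of a member was 0.0546. A rule of 5 CPM in all 4 columns left 12 higher and 1 lower. Leaving out 1 library gave from 0 to 40 members higher and from 0 to 19 lower, and from 0 to 3771 of all features higher and from 0 to 4218 lower: 0 without either Control library, and the higher counts without either knockdown library, with the lone library's spread taken from the other group. The ratio of the members' shares was 1.82, and lay between 1.75 and 1.90 without each library, an alternative added after seeing the data, and at 1.86 with the 10 CPM rule. With the replicate number as a block, 25 members were higher and 5 lower, and 1240 and 1120 of all features. The numbers are not shown to pair the samples (correlation of same-numbered deviations 0.224, from only 2 pairs). lncRNA:CR43250 reversed from -0.68 to 0.26 without Nup358GLKD replicate 1 (adjusted p = 0.156), its low library, and lay between -4.49 and 0.26 over the fits that leave out 1 library. Nup358 passed with total counts (adjusted p = 0.0419), limma-voom (0.0466), robust=FALSE (0.0486), the block (0.0295), DESeq2 (9.62e-05) and without Nup358GLKD replicate 1 (8.61e-05) or replicate 2 (0.000149), and not under the other alternatives fitted on summed rows (from 0.0525 to 0.293). Depth limits the precision of members that were near or under 5 CPM in a group. The causes were not tested.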

Other observations

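The noncoding RefSeq RNAs below the 5 CPM rule had a positive median change, but not more calls than other features. Of 485 such features that were tested, 40 were higher and 15 lower (edgeR's quasi-likelihood test), where 9.54% and 9.02% of all features were, with a median fitted log2 change of 0.75, and they summed to 370, 351, 536 and 471 CPM in Control replicates 1 and 2 and Nup358GLKD replicates 1 and 2. The 4 rows of the signal recognition particle RNA summed to 2.17, 1.89, 4.75 and 10.4 CPM. RNase P RNA had 1.55, 1.40, 3.52 and 2.77 CPM, and the 239 microRNA rows summed to 2.33, 1.71, 5.50 and 2.71 CPM. roX1, which belongs to the male dosage compensation complex, was at 0.527, 0.553, 0.395 and 0.897 CPM.

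Member genes were spread unevenly over the chromosomes. Of the 56 member genes 17 (30.4%) lay on the X chromosome, which holds 14.3% of all genes with NR_ rows, and 6 (10.7%) on arm 2L, which holds 27.1%. This is a description of which noncoding genes reached 5 CPM, with no test. All genes with NR_ rows include kinds that seldom or never met the rule, such as snoRNA and microRNA genes. The arms were not compared within a single kind of RNA.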
